A study of Mus musculus with 6 samples.

Results

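The mouse PYHIN genes, also called the p200 cluster, were followed across 6 macrophage samples profiled by RNA sequencing. The members were taken by symbol from the table of 22063 genes, and all 10 given members (Aim2, Mndal, Ifi202b, Ifi203, Ifi204, Ifi205, Ifi207, Ifi209, Ifi211 and Ifi213) were found once each. Most PYHIN proteins pair a pyrin domain, which assembles with other pyrin domains, with a HIN domain, which grips double-stranded DNA. AIM2 detects DNA in the cytosol and, through the adaptor ASC (gene Pycard), recruits caspase-1 into an inflammasome that matures interleukin 1 beta and interleukin 18. Most of the other genes of the cluster are known as interferon-induced nuclear or cytosolic proteins, several of which restrain the growth of cells or sense DNA.

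There were 3 samples of CAR-Trem2-Ms, which were set against 3 samples of CAR-Ms. Both are mouse macrophages that were grown for 7 days in DMEM with M-CSF, a macrophage growth factor, at 20 ng/mL, and infected with a lentivirus to give them a CAR, an engineered antigen receptor. The labels of CAR-Trem2-Ms give the genotype as TERM2+, 1 µM VD3 for 24 h and sorting by flow cytometry, whereas those of CAR-Ms give WT and the lentivirus alone. The protocol field shared by all samples also names VD3, which leaves its use in CAR-Ms unsettled, and Trem2 status, sorting and possibly VD3 cannot be told apart between the groups. Any difference in mouse strain or batch between the groups could not be told apart from these either. The labels name the tissue as skin without a mouse strain or a receptor target, and do not say whether replicates were separate cultures or mice. Every p-value here therefore rests on the spread among these 6 samples, some or all of which may be technical.

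Libraries held 9804959 to 12558021 reads in CAR-Trem2-Ms and 14204468 to 15913100 reads in CAR-Ms, and mitochondrially encoded genes took 13.4% to 13.8% of them in CAR-Trem2-Ms and 4.60% to 4.70% in CAR-Ms. With those genes left out, the same counts of PYHIN genes were called, 8 higher and 1 lower. Of all 11387 genes in that fit, 4669 were called higher and 4573 lower. The median log2 fold change of all genes moved by only 0.0016 in that fit. It therefore does not address other differences that go with the mitochondrial share. Trem2 averaged 191.2 ± 7.56 CPM in CAR-Trem2-Ms and 76.6 ± 2.31 CPM in CAR-Ms (SD, n = 3 each) and was called higher, in the direction of the labels. Levels in CPM are counts per 1e6 reads scaled with TMM factors, and each fold change sets CAR-Trem2-Ms over CAR-Ms in edgeR's quasi-likelihood test, called at a Benjamini-Hochberg adjusted p under 0.05 over 11402 tested genes. Of 10 macrophage markers 9 were tested, of which 7 were higher and 2 lower in CAR-Trem2-Ms. They summed to 4450 to 4500 CPM in CAR-Trem2-Ms and 3770 to 3800 CPM in CAR-Ms, with Lyz2, Csf1r and Cd68 the highest, but Mertk was near 0. Csf1r and Cd68 were the 2 called lower, averaging 862 and 601 CPM in CAR-Trem2-Ms, against 1264 and 639 CPM in CAR-Ms. Defining markers of keratinocytes summed to 0 in every CAR-Trem2-Ms sample and to at most 0.06 CPM in CAR-Ms, and 4 of their 5 genes had no read. Of the T and NK cell markers, 4 of 9 were tested and 3 were called higher in CAR-Trem2-Ms, where the list summed to 5.72 to 10.7 CPM, against 1.08 to 1.45 CPM in CAR-Ms; Ncr1 and Klrb1c had no read. All 5 B cell markers were called lower in CAR-Trem2-Ms, at 3.43 to 4.46 CPM in sum, against 10.9 to 16.9 CPM in CAR-Ms. Of the 6 tested neutrophil markers, 5 were called lower and 1 higher, at 15 to 17 CPM in sum in CAR-Trem2-Ms and 20.2 to 38.1 CPM in CAR-Ms. The marker that rose, Csf3r, made up most of that sum in CAR-Trem2-Ms, at 11.4 CPM on average against 2.13 CPM in CAR-Ms, while Ngp averaged 0.82 CPM in CAR-Trem2-Ms and 7.47 CPM in CAR-Ms. Dendritic cell markers summed to 2.82 to 4.1 CPM and fibroblast markers to 3.18 to 4.18 CPM in CAR-Trem2-Ms, against 2.09 to 2.53 CPM and 1.71 to 2.76 CPM in CAR-Ms. The part of these cells in the values below was not tested, and in bulk samples fewer cells of a type and less RNA per cell cannot be told apart.

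CAR-Trem2-Ms held a mixed pool of PYHIN transcripts, in which Aim2, Mndal and Ifi203 were all abundant, while Aim2 made up most of the pool in CAR-Ms. Which gene led in CAR-Trem2-Ms depended on the scale, Mndal in the authors' TPM (85.1, against 77.9 for Aim2) and Aim2 in CPM. Of the 10 members, 8 rose, Aim2 fell and Ifi205 had too few reads to be tested. Among all tested genes, 40.9% were called higher and 40.1% lower, 81.1% in all. At least a 4-fold rise with a call was found for 7 members, all that rose except Ifi209, and for 5.42% of tested genes. Of the 9 tested members, Ifi202b, Ifi204, Ifi209 and Ifi211 passed the filter on low counts only through their reads in CAR-Trem2-Ms, so a rise was built into their passing. The 5 that passed on CAR-Ms reads alone were Aim2, Ifi203, Ifi207, Ifi213 and Mndal, of which Aim2 fell and the others rose.

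**Figure D1:**
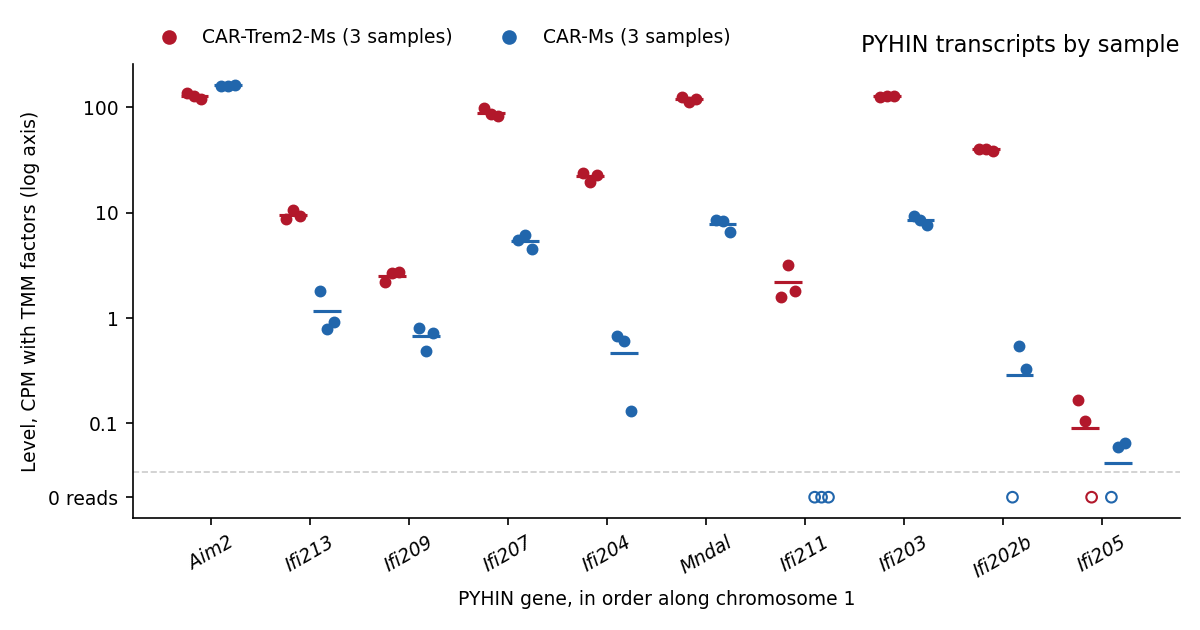
Level of each PYHIN gene in every sample, in CPM with TMM factors on a log axis, with genes in their order along chromosome 1; points are samples, short lines are group means, and open points at the bottom are samples with 0 reads. CAR-Trem2-Ms points lie above CAR-Ms points for every gene except Aim2, where they lie below, and Ifi205, where the groups overlap.

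Aim2, the inflammasome sensor, read 135.3, 127.0 and 119.7 CPM in CAR-Trem2-Ms replicates 1, 2 and 3, against 160.0, 158.7 and 163.0 CPM in CAR-Ms replicates 1, 2 and 3. Every CAR-Trem2-Ms sample was below every CAR-Ms sample, as happened without overlap in either direction for 81.8% of tested genes. Aim2 fell by 0.33 ± 0.04 on the log2 scale (SE), with a 95% interval of -0.42 to -0.24 (edgeR, adjusted p = 8.0e-08). This is a small change beside those of the other members, and its size depended on scaling. It was -0.10 with upper quartile factors, under which the median of all genes moved up by 0.23, and -0.46 on total counts only, under which that median moved by -0.12. On log2(TPM + 1) it was -0.93, with that median moved by -0.66. Under each of these scalings Aim2 was called lower in CAR-Trem2-Ms.

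Mndal and Ifi203 were, per length, the most abundant of the genes that rose. Mndal, a homologue of human MNDA, read 123.5, 111.8 and 119.5 CPM in CAR-Trem2-Ms, against 8.50, 8.26 and 6.52 CPM in CAR-Ms. Ifi203, a nuclear member of the family, read 124.7, 127.1 and 127.2 CPM in CAR-Trem2-Ms, against 9.37, 8.44 and 7.64 CPM in CAR-Ms. The groups stood more than 10-fold apart in both genes, with CAR-Ms replicate 3 the lowest of its group in each. Mndal rose 15.2-fold (log2 3.93 ± 0.09, SE; edgeR, adjusted p = 2.0e-25) and Ifi203 14.9-fold (3.90 ± 0.08; adjusted p = 2.2e-26). Ifi207 read 97.2, 85.8 and 83.1 CPM in CAR-Trem2-Ms, against 5.46, 6.15 and 4.55 CPM in CAR-Ms, and rose 16.4-fold (log2 4.04 ± 0.10, SE; edgeR, adjusted p = 7.8e-24). The 95% intervals of these 3 log2 fold changes overlapped, from 3.74 at the lowest bound of Ifi203 to 4.25 at the highest bound of Ifi207, and differences in size between these rises were not tested.

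Ifi202b and Ifi204 were close to silent in CAR-Ms. Ifi202b encodes p202, a protein without a pyrin domain that is known in mice to bind DNA and hold back AIM2. It had 482, 380 and 452 reads in CAR-Trem2-Ms, against 0, 9 and 5 reads in CAR-Ms replicates 1, 2 and 3. In CPM this was 40.3, 40.4 and 38.6 in CAR-Trem2-Ms, against 0, 0.54 and 0.33 in CAR-Ms. The CAR-Trem2-Ms samples lay close together, and the CAR-Ms samples differed by a few reads, one of them with none. The log2 fold change was 7.00 with a 95% interval of 6.51 to 7.504 (edgeR, adjusted p = 1.3e-20). Ifi204, a mouse DNA sensor that is known to act through STING and is often compared with human IFI16, had 286, 185 and 264 reads in CAR-Trem2-Ms, against 10, 10 and 2 reads in CAR-Ms. Its level was 22.03 ± 2.17 CPM in CAR-Trem2-Ms and 0.47 ± 0.29 CPM in CAR-Ms (SD, n = 3 each), a log2 fold change of 5.52 with a 95% interval of 4.99 to 6.05 (edgeR, adjusted p = 1.5e-17). For both Ifi202b and Ifi204 a rise was built into passing the filter on low counts.

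The remaining members were low in both groups. Ifi213 had 104, 99 and 108 reads in CAR-Trem2-Ms, against 27, 13 and 14 reads in CAR-Ms, where replicate 1 stood above the other samples. It rose 8.06-fold (log2 3.01 ± 0.29, SE; edgeR, adjusted p = 1.8e-10). Ifi209 had 26, 25 and 32 reads in CAR-Trem2-Ms, against 12, 8 and 11 reads in CAR-Ms, and had the smallest rise, 3.73-fold, with a wide 95% interval of 1.04 to 2.76 on the log2 scale (edgeR, adjusted p = 1.7e-04). A rise was built into the passing of Ifi209 through the filter as well. Ifi211 had 19, 30 and 21 reads in CAR-Trem2-Ms and none in any CAR-Ms sample. Against a floor of 3 reads over the CAR-Ms group, and relative to library totals without TMM factors, Ifi211 was at least 30.1-fold higher in CAR-Trem2-Ms. The fit with TMM factors called Ifi211 higher (edgeR, adjusted p = 9.6e-08) but did not test that bound, and a rise was built into its passing the filter. Ifi205, whose product is known in mouse macrophages to promote transcription of Pycard, had 2, 1 and 0 reads in CAR-Trem2-Ms, against 0, 1 and 1 reads in CAR-Ms, and a difference was not detectable at this depth.

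**Figure D2:**
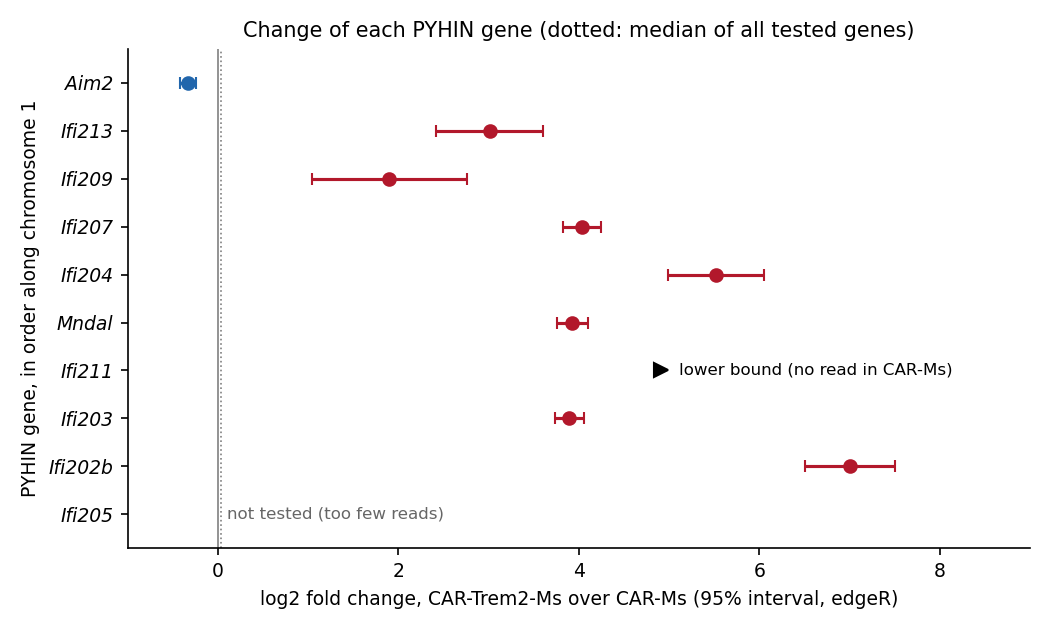
Log2 fold change of each PYHIN gene, CAR-Trem2-Ms over CAR-Ms, with genes in their order along chromosome 1; bars are 95% intervals from edgeR, and the triangle is the lower bound for Ifi211 on total-count scaling. The 7 other genes that rose lie between 1.90 and 7.00, and Aim2 lies at -0.33, close to the dotted median of all tested genes at 0.03.

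Levels of different genes can be compared only per length, for which the authors' TPM values (abundance per length, scaled to a fixed total within each library) were used. The 10 members summed to 274.3 ± 8.29 TPM in CAR-Trem2-Ms and 166.0 ± 8.05 TPM in CAR-Ms (SD, n = 3 each), a ratio of 1.65. Without Aim2 they summed to 196.4 ± 5.39 TPM in CAR-Trem2-Ms and 16.7 ± 2.36 TPM in CAR-Ms, a ratio of 11.8. Both ratios depend on the TPM scale, on which most genes shifted down. On log2(TPM + 1) the median log2 fold change of all genes was -0.63, against 0.03 by counts. Aim2 held 28.4% ± 0.51 of the summed TPM in CAR-Trem2-Ms and 89.9% ± 1.88 in CAR-Ms. Mndal held 31.0% ± 0.45 in CAR-Trem2-Ms and 4.67% ± 0.95 in CAR-Ms, and Ifi203 held 14.8% ± 0.73 in CAR-Trem2-Ms and 2.68% ± 0.40 in CAR-Ms. These shares do not depend on how libraries are scaled to each other, but they do depend on how the authors estimated gene length.

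In CAR-Trem2-Ms the order of TPM levels was Mndal at 85.1 ± 3.82, Aim2 at 77.9 ± 3.26, Ifi203 at 40.6 ± 0.86, Ifi207 at 27.2 ± 2.24, Ifi202b at 26.9 ± 0.63, Ifi204 at 10.4 ± 0.95, Ifi213 at 3.64 ± 0.38, Ifi211 at 1.39 ± 0.55, Ifi209 at 1.20 ± 0.08 and Ifi205 at 0.07 ± 0.06 (SD, n = 3 each). Mndal and Aim2 did not overlap, at 82.1 to 89.4 TPM and 74.5 to 81.0 TPM, whereas Ifi207 and Ifi202b did, as did Ifi211 and Ifi209. In CAR-Ms, Aim2 stood at 149.3 ± 10.2 TPM, above Mndal at 7.70 ± 1.20, Ifi203 at 4.43 ± 0.46, Ifi207 at 2.73 ± 0.45 and Ifi213 at 0.72 ± 0.35. Ifi209, Ifi204 and Ifi202b followed at 0.40 ± 0.21, 0.36 ± 0.23 and 0.32 ± 0.30 TPM and did not differ beyond their spread, and the range of Ifi213 overlapped that of Ifi209. Ifi205 and Ifi211 were at or near 0. The TPM of Ifi209 was not a fixed multiple of its reads: its 12, 8 and 11 reads in CAR-Ms were listed as 0.63, 0.23 and 0.35 TPM.

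**Figure D3:**
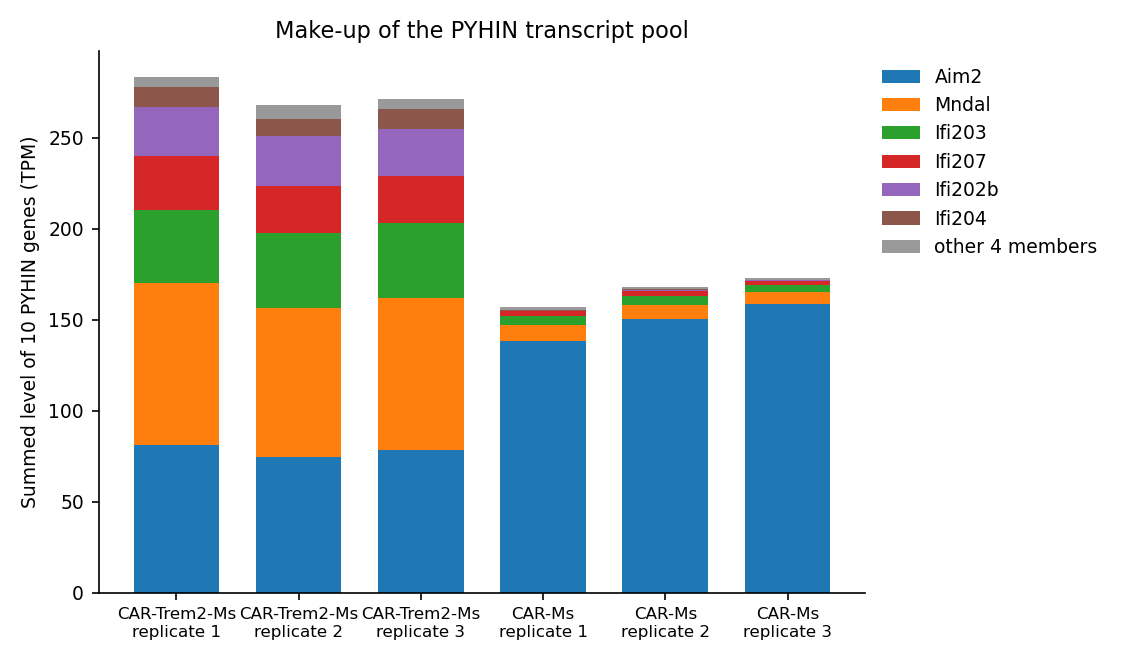
Summed TPM of the 10 PYHIN genes in each sample, stacked by gene, with Ifi205, Ifi209, Ifi211 and Ifi213 drawn together. Aim2 fills most of each CAR-Ms bar (89.9% on average), while each CAR-Trem2-Ms bar is taller and split mainly among Mndal, Aim2, Ifi203, Ifi207 and Ifi202b.

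The authors' deposited table gives log2 ratios of mean TPM in the same direction for these genes. In the authors' deposited table Aim2 had a log2 ratio of -0.94, Mndal 3.47, Ifi203 3.20, Ifi207 3.32, Ifi202b 6.41 and Ifi204 4.85. The authors' deposited table lists 10.4 for Ifi211, a value that rests on a mean of 0 in CAR-Ms replaced by 0.001 and is therefore no estimate of size.

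All 10 genes lie in a single cluster on chromosome 1, at chr1:173350879-174031810 in mm10 (GRCm38) by the GENCODE M21 annotation, which holds 99.6% of the table's gene identifiers. Aim2 (chr1:173350879-173466040, plus strand) is at one end, followed by Ifi213, Ifi209, Ifi207, Ifi204, Mndal, Ifi211, Ifi203, Ifi202b and Ifi205 (chr1:174011998-174031810, minus strand) at the other. Ifi202b, which rose to 39.8 ± 1.01 CPM in CAR-Trem2-Ms, lies beside Ifi205, which was almost unread. The cluster's other genes in the table, Ifi206, Ifi208 and Ifi214, were also almost unread, with 4 to 10, 1 to 3 and 0 to 1 reads in CAR-Trem2-Ms, against 3 to 5, 2 to 7 and 0 to 1 reads in CAR-Ms, and were not tested. Beside the cluster, Ackr1 and Cadm3, which overlaps the Aim2 gene model on the opposite strand, had no read in any sample, and the 8 nearest olfactory receptor genes had at most 4.

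Members of this cluster are near-identical copies in part, so reads may be shared between them. Every stretch of 50 bases in the annotated transcripts of each member was searched for in the transcripts of all other annotated genes, on both strands, and the same was done with 100 bases (read length: not given in the sources used here). Ifi202b shared none of its 50-base stretches and Aim2 0.74%. Ifi211 shared 72.8% of its stretches, with 44.7% of them all found in Ifi205 and 30.1% in Ifi204, so its low counts are the least certain. Ifi209 shared 33.8%, nearly all with Ifi214. For Ifi204, Mndal, Ifi205, Ifi213, Ifi203 and Ifi207 the shares were 20.0%, 19.6%, 18.6%, 15.6%, 12.4% and 7.29%. At 100 bases the shares were 56.9% for Ifi211, 16.9% for Ifi209, 15.0% for Ifi205, 10.7% for Ifi204 and 6.38% or less for the other members. The annotated exons of Mndal and Ifi203 overlap by 37 bases on the same strand, and the Mndal gene model (chr1:173849126-173942491) spans Ifi211 and most of Ifi203 (chr1:173920407-173942672).

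**Figure D4:**
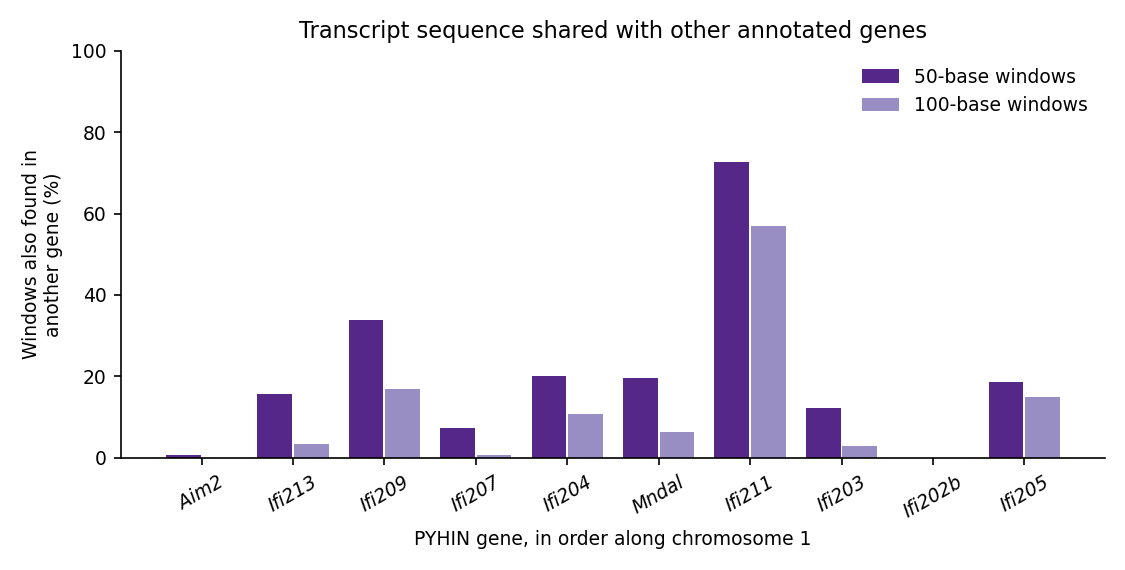
Share of each PYHIN gene's annotated transcript sequence, as stretches of 50 or 100 bases, that also occurs in another annotated gene, in percent. Ifi211 stands highest at 72.8% and 56.9%, and Aim2 and Ifi202b lie at 0.74% or below.

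The sequence before each start site was compared because most members rose together while Aim2 did not. RefSeq promoters (GRCm38.p6, 250 bases before to 50 after a start site) matched 9 of the 10 members, all but Ifi204, with 11 start sites. Both strands were searched for TTTC, any 2 bases and TTTC, the core of the interferon-stimulated response element bound by interferon regulatory factors, and for TTCNNNGAA, the gamma-activated site type. The first occurred in promoters of 6 members, Ifi203, Ifi205, Ifi207, Ifi211, Ifi213 and Mndal, and in 3.44% of all 32851 promoters of the same length. The second occurred in that of Ifi202b alone among members, and in 8.3% of all promoters. Neither string occurred in the Aim2 or Ifi209 promoter at the start sites searched. A shorter string chosen after these promoters had been read, AAATNGAAA, which overlaps the first, was also present in Ifi209 and in 1.87% of all promoters. Because of that choice, its presence in Ifi209 is no separate finding, and the capitals in the Ifi209 promoter rest on it alone. The 150 bases before the start site are shown for Aim2, which fell, for Ifi202b, which rose most among the genes read in both groups, and for 4 other members that rose, 5′ to 3′ on the gene's strand, with matches to any of these strings in capitals. For Ifi203 the second of 2 listed start sites is shown, since the first held none of them, and for Mndal the first of 2. The Aim2 start site lies inside its GENCODE gene model, which begins at chr1:173350879, and both Mndal start sites lie inside theirs. Sequence before the beginning of the Aim2 model was not searched, so the lack of matches in Aim2 holds for the start site shown alone.
Aim2, chr1:173420454-173420603, plus strand: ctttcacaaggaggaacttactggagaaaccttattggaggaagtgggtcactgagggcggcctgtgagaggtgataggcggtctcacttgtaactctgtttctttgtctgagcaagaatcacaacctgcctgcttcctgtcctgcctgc
Ifi209, chr1:173630709-173630858, plus strand: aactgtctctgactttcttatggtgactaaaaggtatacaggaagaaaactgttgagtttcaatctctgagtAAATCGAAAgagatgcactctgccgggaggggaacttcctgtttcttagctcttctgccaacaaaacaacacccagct
Ifi207, chr1:173741810-173741959, minus strand: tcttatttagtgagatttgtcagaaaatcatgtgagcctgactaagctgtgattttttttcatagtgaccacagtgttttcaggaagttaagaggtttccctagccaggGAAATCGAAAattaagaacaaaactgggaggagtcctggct
Mndal, chr1:173880188-173880337, minus strand: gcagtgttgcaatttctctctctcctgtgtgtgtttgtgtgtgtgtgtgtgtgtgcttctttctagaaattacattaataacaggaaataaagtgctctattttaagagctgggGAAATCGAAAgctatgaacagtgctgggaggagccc
Ifi203, chr1:173942493-173942642, minus strand: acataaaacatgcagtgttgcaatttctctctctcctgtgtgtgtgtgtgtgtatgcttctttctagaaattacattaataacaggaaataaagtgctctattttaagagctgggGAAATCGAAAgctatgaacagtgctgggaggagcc
Ifi202b, chr1:173982845-173982994, minus strand: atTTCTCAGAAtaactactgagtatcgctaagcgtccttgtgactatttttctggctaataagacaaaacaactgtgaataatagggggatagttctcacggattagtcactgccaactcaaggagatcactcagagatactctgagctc

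In Ifi203, Mndal and Ifi207 the same capitalised string, GAAATCGAAA, begins 35, 36 and 41 bases before the start site. In Ifi213 it begins 73 bases before, and Ifi211 and Ifi205 carry GAAATTGAAA at 37 and 134 bases before. Ifi205 was almost unread in both groups although its promoter holds such a match. The promoters are copies themselves: those of Mndal and Ifi203 were identical at 97.6% of 289 aligned bases, and those of Ifi207 and Ifi211 at 88.3% of 290, so the matches in different members are not separate observations. A match describes letters in this window and says nothing of binding.

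Genes of interferon signalling, which induces most PYHIN genes, were mostly higher in CAR-Trem2-Ms by counts but 8 higher and 7 lower by TPM. Of 19 listed, 17 were tested, and 12 of these rose, 2 fell and 3 missed the threshold. Over all tested genes, 40.9% were called higher and 40.1% lower. The median log2 fold change of the 17 was 1.03, against 0.03 over all tested genes. Irf7, a transcription factor of interferon induction, averaged 72.0 ± 4.76 CPM in CAR-Trem2-Ms and 2.36 ± 0.18 CPM in CAR-Ms (SD, n = 3 each), a rise of 30.4-fold. Usp18, a brake on the interferon receptor, averaged 21.5 ± 1.75 CPM in CAR-Trem2-Ms and 0.58 ± 0.21 CPM in CAR-Ms. Stat2 and Irf9, which act together at interferon-stimulated response elements, rose 5.83-fold and 2.73-fold (edgeR, adjusted p = 5.2e-20 and 8.6e-17). Jak1, a kinase of the interferon receptors, and Ifngr1, a receptor chain for interferon gamma, were the genes that fell, by 1.496 and 0.86 on the log2 scale, and were named after their values were seen. The genes of the ligands listed, Ifnb1 and Ifng, had at most 1 and 6 reads in a CAR-Trem2-Ms sample and 0 in every CAR-Ms sample, and were not tested. By TPM, tested as log2(TPM + 1), 8 were higher and 7 lower and the median was 0.21, while over all 10824 genes in that fit 1890 were higher and 6946 lower and the median was -0.63.

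Of 14 genes of its inflammasome and products, 12 were tested, and 8 of these rose, 2 fell and 2 missed the threshold (median log2 fold change 0.70, against 0.03 over all tested genes). Counted without regard to direction, calls were thus about as common as over all tested genes, of which 81.1% were called. By direction, calls in the list leaned towards rises, 8 against 2, while over all tested genes 40.9% were higher and 40.1% lower. This difference in split was not tested. Casp1, the protease, averaged 71.0 ± 4.48 CPM in CAR-Trem2-Ms and 20.6 ± 2.29 CPM in CAR-Ms (SD, n = 3 each), a rise of 3.44-fold. Gsdmd, which forms the membrane pore, rose 3.73-fold to 76.4 ± 3.26 CPM in CAR-Trem2-Ms, against 20.5 ± 1.24 CPM in CAR-Ms. Il18, a cytokine that caspase-1 matures, rose 4.16-fold to 13.96 ± 0.58 CPM in CAR-Trem2-Ms, against 3.36 ± 0.50 CPM in CAR-Ms, and Panx1, a membrane channel, fell by 1.37 on the log2 scale. Il1b, the gene of interleukin 1 beta, had 2 to 7 reads in CAR-Trem2-Ms, against 11 to 15 reads in CAR-Ms. Its log2 fold change of -0.73 missed the threshold. Pycard, the adaptor between AIM2 and caspase-1, was nearly unread in both groups, at 0.52 ± 0.17 CPM in CAR-Trem2-Ms and 0.26 ± 0.12 CPM in CAR-Ms, and was not tested. By TPM, tested as log2(TPM + 1), 6 were higher and 5 lower (median 0.11, against -0.63 over all genes).

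In the cytosolic DNA response that IFI204 feeds, 11 of 12 listed genes were tested, and 8 of these rose, 2 fell and Sting1 missed the threshold, beside 40.9% higher and 40.1% lower over all tested genes. Ikbke, a kinase that activates interferon regulatory factors, rose 7.09-fold to 55.7 ± 3.41 CPM in CAR-Trem2-Ms, against 7.86 ± 0.22 CPM in CAR-Ms (SD, n = 3 each). Trex1 and Dnase2a, nucleases that clear DNA, rose 6.71-fold and 2.36-fold, and Zdhhc1, a palmitoyltransferase tied to STING, 3.61-fold. Sting1 itself, the adaptor, averaged 17.7 ± 1.01 CPM in CAR-Trem2-Ms and 16.8 ± 1.81 CPM in CAR-Ms (95% interval of the log2 fold change -0.17 to 0.33). The larger of the 2 falls was that of Cgas, by 0.76 ± 0.06 on the log2 scale (SE). Cgas averaged 53.2 CPM in CAR-Trem2-Ms and 90.3 CPM in CAR-Ms. The rule for naming genes given below does not pick Cgas, which was added because of this fall. Tbk1, the kinase downstream of STING, fell by 0.40 ± 0.05 on the log2 scale (SE). Irf3, its substrate, rose 1.84-fold, but by TPM it changed by 0.01 on the log2 scale and was not called. Over the list the median log2 fold change came to 0.41, against 0.03 over all tested genes. On log2(TPM + 1), where all genes shifted down to a median of -0.63, the list had a median of -0.50, with 4 genes higher and 6 lower.

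Proteins that p202, p204 and p205 are known to bind or act through in cell cycle and differentiation were the last list. Of its 15 genes, 14 were tested, and 8 of these rose and 6 fell, with a median log2 fold change of 0.17, against 40.9% higher, 40.1% lower and a median of 0.03 over all tested genes. Id3 and Id1, inhibitors of differentiation factors, rose 2.62-fold and 2.48-fold. Runx2, a bone transcription factor, averaged 0.83 ± 0.26 CPM in CAR-Trem2-Ms and 4.98 ± 0.07 CPM in CAR-Ms (SD, n = 3 each), and Ubtf, a factor for ribosomal RNA genes, fell by 1.46 on the log2 scale. On log2(TPM + 1), 3 were higher and 9 lower, with a median of -0.52 against -0.63 over all genes.

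**Figure D5:**
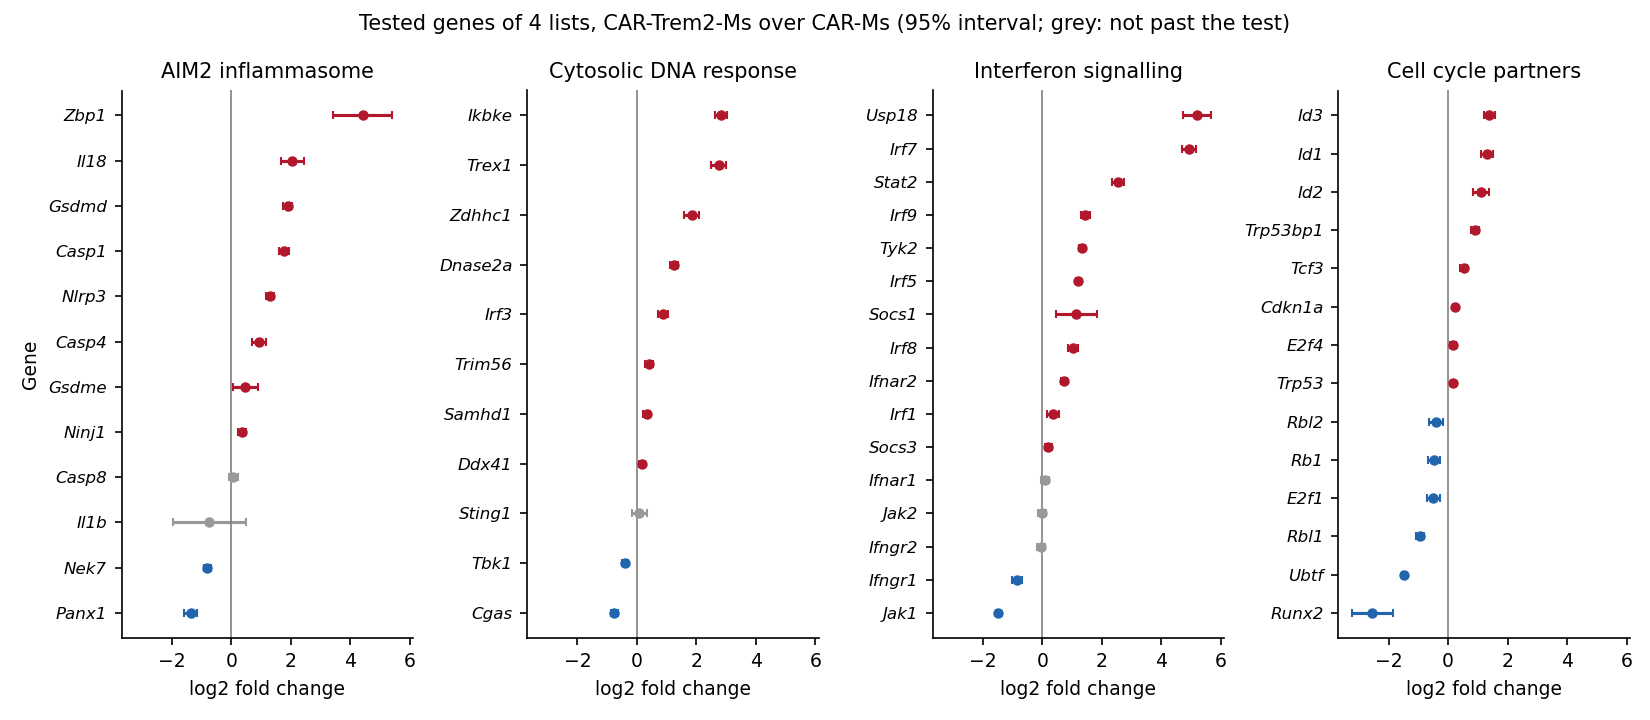
Log2 fold changes, CAR-Trem2-Ms over CAR-Ms, of tested genes of the 4 lists, with 95% intervals from edgeR; red genes were called higher, blue genes lower, and grey genes did not pass. Irf7 and Usp18 lie near 5, and Jak1 lies at -1.496.

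Likeness in pattern was measured as the Euclidean distance over the 6 samples between the centred log2 CPM of a gene and the mean of the 9 tested members (log2 CPM with a prior count of 2). The nearest genes outside the family were Plin2, the coat protein of lipid droplets, at 0.14, Snx32 at 0.26, the linker histone gene H1f4 at 0.28, Lilrb4b, an inhibitory receptor of myeloid cells, at 0.30, and Colq at 0.33. The member mean, which includes Aim2, differed by 3.56 between the groups. Log2 fold changes of these genes were 3.49, 3.76, 3.73, 3.41 and 7.45 in that order. Such a distance mainly ranks genes by the size of their group difference, and shared regulation was not tested.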

How the data were processed

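Per the file headers, the deposited table holds, for each sample, raw read counts per gene and TPM values, which are scaled for length within a library. It adds the authors' group means of TPM, their log2 ratio, a p-value and an adjusted p-value from a test that the table does not name; a mean of 0 was replaced by 0.001 in the deposited mean. The submitters' processing notes list mm10 and the tools StringTie 1.3.1, HISAT2, Bowtie2 2.2.8 and fastp 0.18.0, without their order. How reads were counted, on which annotation and whether by strand: not given in the sources used here.

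The deposited counts were fitted in R 4.3.3 with edgeR 4.0.16 (quasi-likelihood test, TMM factors, filterByExpr), on all genes and all 6 samples, with no replicate term. An SE is the log2 fold change divided by the root of its F statistic. The code was tested on simulated counts. Each sample counted as 1 replicate. Replicate pairs differed by more than sampling noise (chi-square per degree of freedom 2.19 to 3.34), which does not tell separate cultures from separate libraries of 1 culture. Floors cover counting error only. Alternatives were other scalings and filters, DESeq2 1.42.0, limma 3.58.1 (voom, and trend on TPM with pseudocounts of 1 and 0.1, over genes at 1 TPM or more in 3 samples), a replicate block and leaving out each sample.

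The members and lists were chosen with earlier results of these data known. The text names every member, the fixed partners (Pycard, Casp1, Sting1, Tbk1, Irf3, Stat2, Irf9, Irf7), the other PYHIN genes in the table, and from each list up to 4 changed genes with at least 50 reads in the higher group and the largest fold change, Trem2, and the 5 genes most like the members in pattern. A further gene that this rule picks is not reported here or drawn.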

Additional observations from a re-analysis of the deposited data

How the results depend on the processing

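Across 19 alternatives, each of the 8 PYHIN genes that rose kept its direction and its call. Log2 fold changes were 4.43 to 7.81 for Ifi202b, 3.08 to 5.83 for Ifi204, 2.94 to 4.13 for Ifi203 and 3.32 to 4.16 for Mndal. They were 2.92 to 4.27 for Ifi207, 1.45 to 3.45 for Ifi213 and 0.66 to 2.13 for Ifi209. Ifi211 had the widest range, 1.23 to 8.06, but no read in CAR-Ms, so these values do not estimate its size. Aim2 kept its direction, between -0.94 and -0.10, and lost its call only where a log2 fold change of at least 1 was asked for (-0.33), which left 0 members lower. That threshold left 2136 genes of the table higher and 1629 lower, and in the lists 5 higher and 1 lower (AIM2 partners), 4 and 0 (cytosolic DNA response), 9 and 1 (interferon signalling), and 3 and 2 (cell cycle partners); by construction it also ended the calls of Tbk1 and Irf3. On log2(TPM + 1), 1890 genes were higher and 6946 lower (1881 and 6927 with a pseudocount of 0.1), and with either pseudocount the lists held 5 lower (AIM2 partners), 4 higher and 6 lower (cytosolic DNA response), 7 lower (interferon signalling) and 3 higher (cell cycle partners); the cause was not tested. The split of calls was 50.5% higher with TMM factors, 61.3% with upper quartile factors and 21.4% on log2(TPM + 1). Sting1 turned to -0.043 with total counts only, -0.56 on log2(TPM + 1) and -0.60 on log2(TPM + 0.1); it was called lower on both TPM scales and higher, at 0.31, with upper quartile factors. Among cluster genes not listed as members, the count called higher was 0 to 1 when each sample was left out, the 1 arising without CAR-Trem2-Ms replicate 3. With the replicate block, 9188 genes of the table were called, against 9245 without it, and 8 members were higher and 1 lower; same-numbered samples correlated at 0.03, -0.03 and 0.03 in their deviations from group means, not every sample correlated best with its own number, and the labels do not say that a number pairs samples. Too few reads left Ifi205, Pycard and the other cluster genes untested with all 6 samples.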
